A study of Homo sapiens with 24 samples.

Results

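The cell-cycle genes recurrently altered in bladder cancer were taken as CCND1, CDKN1A, CDKN2A, CDKN2B, E2F3, RB1 and MDM2, and every peak or region that overlapped 6 windows around these 7 genes was read from 18 chromatin immunoprecipitation sequencing (ChIP-seq) lists. Each window held the gene body with 50 kb on either side, and CDKN2A and CDKN2B shared a window. The windows spanned 972 kb in all and held 550 of the 1483402 peaks and regions in the lists. The cells were UMUC1, an established human bladder cancer line grown in serum-containing medium and harvested 3 days after plating. All 3 stable lines carried a pSIN-puro construct: wild-type UTX (WT), UTX with the catalytic-domain substitutions H1146A and E1148A (HEAA), or the empty vector (EV). Each line had 1 list for each of UTX, MLL4, H3K4me1 and H3K27me3, and 2 numbered libraries for H3K27ac. The constructs are expressed stably from a vector, so the levels of UTX are those of the construct and not of the native gene alone, and no expression measurement was used here. Positions are on hg19.

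These genes form the main control points of entry into S phase. Cyclin D1, from CCND1, activates CDK4 and CDK6, which phosphorylate the RB1 protein and so release E2F factors such as E2F3. The products of CDKN2A and CDKN2B, p16INK4a and p15INK4b, inhibit these kinases, while CDKN1A encodes the p53 target p21, which inhibits cyclin-CDK complexes. CDKN2A also encodes ARF, which holds back MDM2, the ubiquitin ligase of p53. In bladder tumours CCND1, E2F3 and MDM2 are known for gains, and CDKN2A and RB1 for losses. UTX (KDM6A) removes methyl groups from H3K27 and works in complexes with MLL4, which places H3K4me1 at enhancers; H3K27ac marks active promoters and enhancers, and H3K27me3 marks Polycomb-repressed chromatin.

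The lists differed in length. The UTX list held 2566 peaks in WT, 2855 in HEAA and 31 in EV, and the MLL4 list 898, 1125 and 133 peaks in the same lines. The H3K27ac regions covered 96.0 and 55.3 Mb in the WT libraries, 111 and 48.3 Mb in the HEAA libraries and 88.1 and 71.7 Mb in the EV libraries, replicate 1 before replicate 2. H3K4me1 covered 179 Mb in WT, 186 Mb in HEAA and 157 Mb in EV, and H3K27me3 covered 169 Mb in WT, 251 Mb in HEAA and 239 Mb in EV. Sequencing depth is unknown, so a place without a region is one below the authors' calling threshold in that list.

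No UTX peak and no MLL4 peak lay in any of the 6 windows, in WT, HEAA or EV. The windows nevertheless held 19 merged H3K27ac regions that were called in all 6 libraries, and 0 of these 19 carried a peak of either factor. Over the whole genome, 7.75% of the 26030 H3K27ac regions called in all 6 libraries carried a UTX peak of WT, 8.74% a UTX peak of HEAA and 0.0730% a UTX peak of EV. For MLL4 the shares were 2.88% in WT, 3.66% in HEAA and 0.392% in EV. At those shares few of 19 regions would carry a peak, so the absence is a description of the windows and does not set them apart.

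The nearest UTX peaks lay outside the windows. Beyond the CDKN2A/B window, a WT peak was found 38.7 kb past the border on the CDKN2B side (chr9:22097665-22097961), with a 6.68-fold enrichment over background as the authors' caller gave it. The HEAA and EV lists had no peak nearer than 1615 kb and 66299 kb to that window. Upstream of CDKN1A, a HEAA peak lay 48.5 kb past the border (chr6:36545249-36545474, 6.67-fold), while the nearest WT peak was 1140 kb away and the EV list had none on the chromosome. Upstream of CCND1, UTX peaks of WT (chr11:69251895-69252346, 6.57-fold) and HEAA (chr11:69251908-69252120, 7.74-fold) overlapped 154 kb past the border, and the MLL4 list of WT had a peak there as well (5.33-fold). For MDM2 the nearest UTX peak was 193 kb away in WT and 1274 kb in HEAA. The nearest UTX peaks of E2F3 lay 874 kb away in WT and 1382 kb in HEAA, and those of RB1 3034 kb in WT and 1713 kb in HEAA. None of these peaks can be assigned to a member gene by its position.

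The 5′ ends of 6 of the 7 member genes were tested, and acetylation lay at each of them in every line. A gene's 5′ end was taken from the window's border and is known to the kb; in the shared window it is that of CDKN2B, whose gene runs towards CDKN2A, and the starts of CDKN2A itself were not tested. An H3K27ac region lay within 2 kb of the 5′ end in each of the 6 H3K27ac libraries at all 6 windows. No H3K27me3 region lay there in any line. The share of 5′ ends over the genome in either state was not computed, so neither count sets these genes apart.

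At CCND1, the cyclin of the set, the region over the 5′ end was 7.19 and 6.78 kb wide in WT, 7.70 and 6.44 kb in HEAA and 6.74 and 7.09 kb in EV. It reached from at most 3.65 kb upstream to 4.05 kb into the gene. Its fold enrichment was 13.0 and 13.4 in WT, 14.2 and 11.4 in HEAA and 11.3 and 19.6 in EV. The 3 lines overlapped in width and in fold, and within each list the region ranked at percentile 96.2 of fold or above.

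CDKN1A, the p21 gene, had the widest merged region at a 5′ end, although the single called region there was narrower than that of CCND1 in 4 of the 6 libraries. The merged region covered 9.84 kb from 1.59 kb upstream to 8.25 kb into the gene (chr6:36642413-36652251), of which 8.54 and 7.63 kb were called in WT, 8.82 and 7.76 kb in HEAA and 7.64 and 8.43 kb in EV. The fold was 19.3 and 12.0 in WT, 19.3 and 8.98 in HEAA and 13.9 and 15.1 in EV. Replicate 1 was higher in WT and HEAA than in EV, and replicate 2 was lower in both, so no line stood apart. The gene body of CDKN1A was 63.2% and 67.4% acetylated in WT, 66.0% and 70.5% in HEAA and 56.1% and 75.0% in EV.

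CDKN2B, the p15INK4b gene, had a narrower region than CDKN1A in all 6 libraries. It was 3.83 and 2.36 kb wide in WT, 4.02 and 1.55 kb in HEAA and 3.05 and 2.38 kb in EV. The fold was 9.40 and 6.48 in WT, 8.61 and 6.12 in HEAA and 8.00 and 10.2 in EV. The lowest width and fold were those of HEAA replicate 2, which was also the shortest H3K27ac list of the 6. Within their lists these regions ranked between percentiles 68.9 and 91.2 of fold, below those of the other 5 windows in 4 of the 6 libraries.

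E2F3, which encodes an activating E2F factor, had acetylation on both sides of its 5′ end. A region 0.866 kb wide ended 0.253 kb upstream, and a second one began 0.0750 kb into the gene and was 3.40 kb wide after merging (chr6:20402076-20405472). That second region was 3.21 and 2.75 kb wide in WT, 3.36 and 2.75 kb in HEAA and 2.90 and 2.93 kb in EV. Its fold was 8.78 and 16.2 in WT, 10.5 and 14.2 in HEAA and 10.8 and 27.2 in EV. The 27.2-fold region of EV replicate 2 had the highest fold of all H3K27ac regions in the windows.

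RB1, whose product restrains E2F factors, had a region of 2.36 and 1.84 kb in WT, 2.53 and 1.89 kb in HEAA and 2.15 and 2.14 kb in EV over its 5′ end. The fold was 9.34 and 14.9 in WT, 8.38 and 9.79 in HEAA and 8.96 and 17.6 in EV. The MDM2 region was 2.96 and 2.23 kb wide in WT, 3.31 and 2.45 kb in HEAA and 2.89 and 2.22 kb in EV. Its fold was 13.5 and 15.2 in WT, 12.8 and 11.8 in HEAA and 11.1 and 18.1 in EV. At CCND1, CDKN2B, E2F3, RB1 and MDM2 the highest fold was that of EV replicate 2. Folds of different lists are set by each list's own background and do not measure a change between lines.

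**Figure D1:**
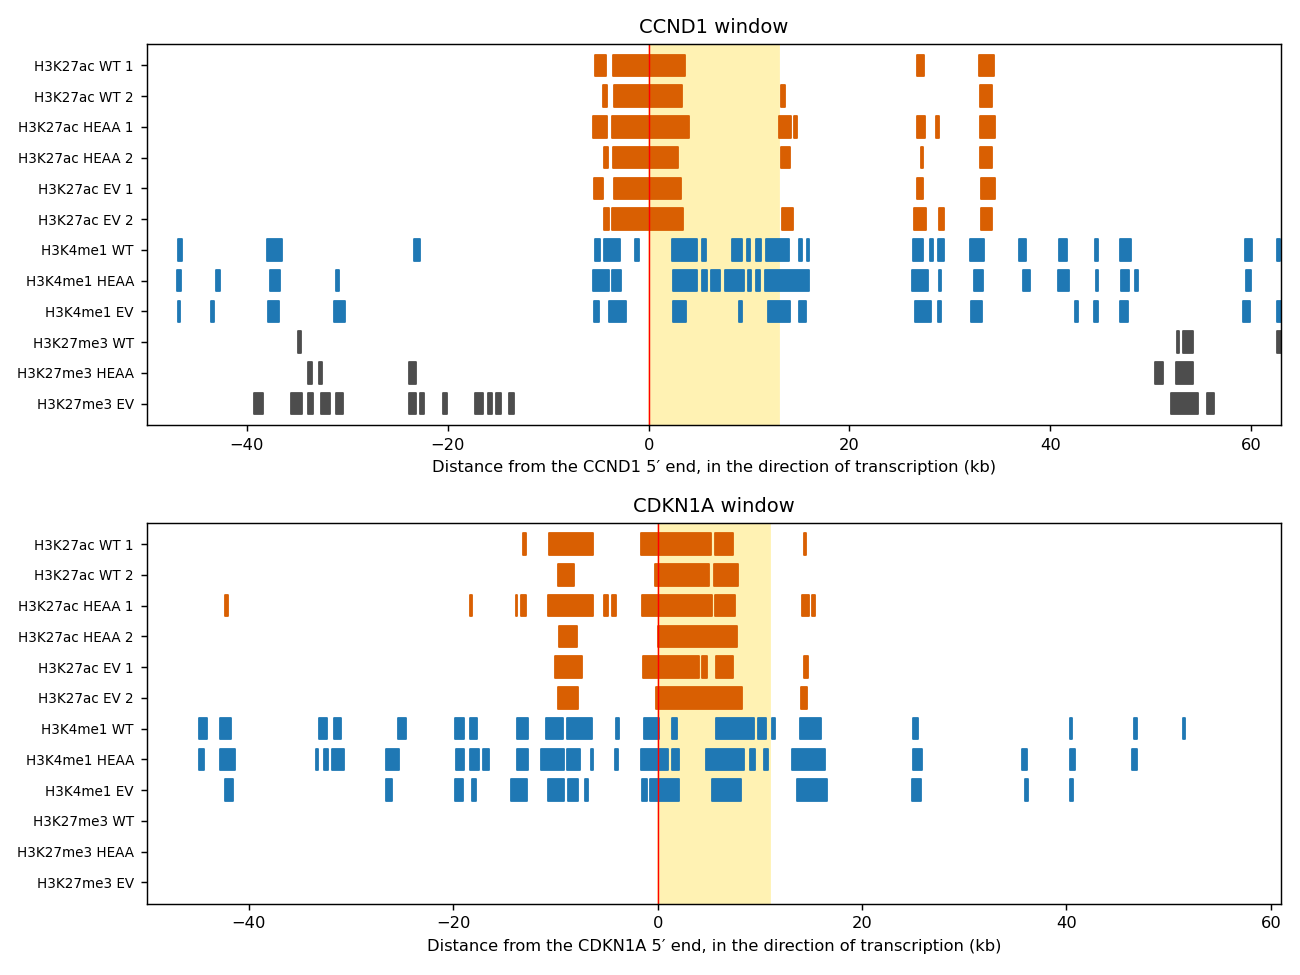
Called regions of each histone list in the CCND1 and CDKN1A windows against the distance from the 5′ end in kb, with 1 line of bars per list (numbers are replicates), the gene body shaded and the 5′ end as a vertical line. Acetylation lies at both 5′ ends in all 6 libraries, H3K27me3 lies only in the CCND1 flanks, and UTX and MLL4 had no peak to draw.

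Promoter sequences are shown for 4 genes: CDKN1A, CDKN2B, E2F3 and CDKN2A. The 5′ ends of CDKN1A, CDKN2B and E2F3 lay in or between acetylated regions, but so did those of CCND1, RB1 and MDM2. CDKN2A is shown for its 2 starts, which are set beside the lists by distance further on. The sequences are the 250 bases before a RefSeq start in GRCh38.p14, 5′ to 3′ on the gene's own strand. Of the 7 members 6 had an entry, and CCND1 was not among them. Coordinates were not carried between the builds, so a printed start need not be the 5′ end tested on hg19. Capitals mark GGGCGG, the core of a GC box, and TTTNNCGC, a core bound by E2F factors, each searched on both strands (so CCGCCC and GCGNNAAA are marked too). Overlapping matches were counted separately.
CDKN1A (chr6:36678464-36678713, plus strand): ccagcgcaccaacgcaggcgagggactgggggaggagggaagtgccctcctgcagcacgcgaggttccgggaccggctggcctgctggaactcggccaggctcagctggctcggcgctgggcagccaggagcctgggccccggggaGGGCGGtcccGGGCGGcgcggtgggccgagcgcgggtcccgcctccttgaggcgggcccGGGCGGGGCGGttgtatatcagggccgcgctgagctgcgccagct
CDKN2B (chr9:22009306-22009555, minus strand): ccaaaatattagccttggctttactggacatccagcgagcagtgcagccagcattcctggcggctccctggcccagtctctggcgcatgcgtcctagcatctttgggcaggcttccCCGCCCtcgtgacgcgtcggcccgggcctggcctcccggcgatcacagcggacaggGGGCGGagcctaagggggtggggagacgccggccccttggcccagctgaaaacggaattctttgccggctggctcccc
CDKN2A, the upstream start (chr9:21995325-21995574, minus strand): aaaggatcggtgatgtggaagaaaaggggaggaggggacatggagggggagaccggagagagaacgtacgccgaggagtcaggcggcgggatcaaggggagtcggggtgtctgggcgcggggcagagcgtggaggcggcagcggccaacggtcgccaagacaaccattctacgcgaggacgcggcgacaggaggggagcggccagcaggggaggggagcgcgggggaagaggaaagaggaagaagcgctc
CDKN2A, the downstream start (chr9:21974858-21975107, minus strand): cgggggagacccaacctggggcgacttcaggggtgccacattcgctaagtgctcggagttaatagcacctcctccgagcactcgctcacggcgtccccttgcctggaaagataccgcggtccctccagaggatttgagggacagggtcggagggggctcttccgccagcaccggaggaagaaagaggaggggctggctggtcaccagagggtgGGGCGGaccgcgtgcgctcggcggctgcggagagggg
E2F3, the first of 2 starts (chr6:20401629-20401878, plus strand): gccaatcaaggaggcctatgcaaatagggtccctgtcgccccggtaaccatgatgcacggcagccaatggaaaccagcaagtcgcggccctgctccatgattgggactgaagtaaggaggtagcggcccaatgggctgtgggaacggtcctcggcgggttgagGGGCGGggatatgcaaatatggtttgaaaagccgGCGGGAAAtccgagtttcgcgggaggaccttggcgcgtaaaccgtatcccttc

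The CDKN1A stretch held 4 GGGCGG matches, CDKN2B 2, the downstream CDKN2A stretch 1, E2F3 1 and the upstream CDKN2A stretch 0. Among all 35116 promoter entries of the table, 42.6% held at least 1 such match in their 250 bases. E2F3 held 1 TTTNNCGC match, and the others printed here held 0; 5.92% of all entries held it. The unprinted MDM2 stretch at its first start held 1 TTTNNCGC match. CG dinucleotides in the 5 printed stretches exceeded the median over all entries, with 27 in CDKN1A, 24 and 20 in the upstream and downstream CDKN2A stretches, 18 in CDKN2B and 18 in E2F3, against that median of 11. The unprinted MDM2 stretch at its first start held 33, and the single RB1 entry, which lies near the 3′ end of the gene and not at its 5′ end, held 0.

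The CDKN2A/B window was the most widely acetylated of the 6 in 6 of 6 libraries, and its marks were unevenly spread. Its widest H3K27ac region did not lie at a 5′ end but 34.6 to 26.3 kb upstream of CDKN2B (chr9:22035277-22043574). Of its 8.30 kb, 7.75 and 5.70 kb were called in WT, 7.58 and 4.34 kb in HEAA and 8.24 and 7.03 kb in EV. WT and HEAA were lower than EV within each replicate number, but EV replicate 2 lay below replicate 1 of WT and HEAA, so the lines overlapped. A second wide region, of 6.58 kb, lay inside the shared gene body, 12.1 to 18.6 kb downstream of the CDKN2B 5′ end (chr9:21990364-21996939). It was covered over 6.24 and 5.82 kb in WT, 6.58 and 4.48 kb in HEAA and 6.35 and 6.0 kb in EV, with folds of up to 14.2 in WT, 11.2 in HEAA and 14.0 in EV.

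The longest empty stretch of the window lay on its CDKN2A side, with regions on both sides of it. It spanned 31.5 kb (chr9:21952931-21984387), lay in none of the 18 lists, and took in 16.4 kb of the shared gene body counted from the 3′ end of CDKN2A. The copy number of this locus in UMUC1 was not measured here, and in the lists an unmarked stretch and one with lost DNA cannot be told apart. In the RefSeq annotation (GRCh38.p14), CDKN2A has a start 27.6 kb and a second start 7.11 kb from the 3′ end of the gene. As background, the upstream start gives the ARF transcript and the downstream one the p16INK4a transcript. On hg19 the acetylated region of 6.58 kb lay 22.4 to 28.9 kb from that 3′ end, which is known to the kb. Set beside each other, the distance of the upstream start lies within the acetylated region and that of the downstream start within the stretch that no list covers. Coordinates were not carried between the builds, so this holds only if these distances are alike in both.

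**Figure D2:**
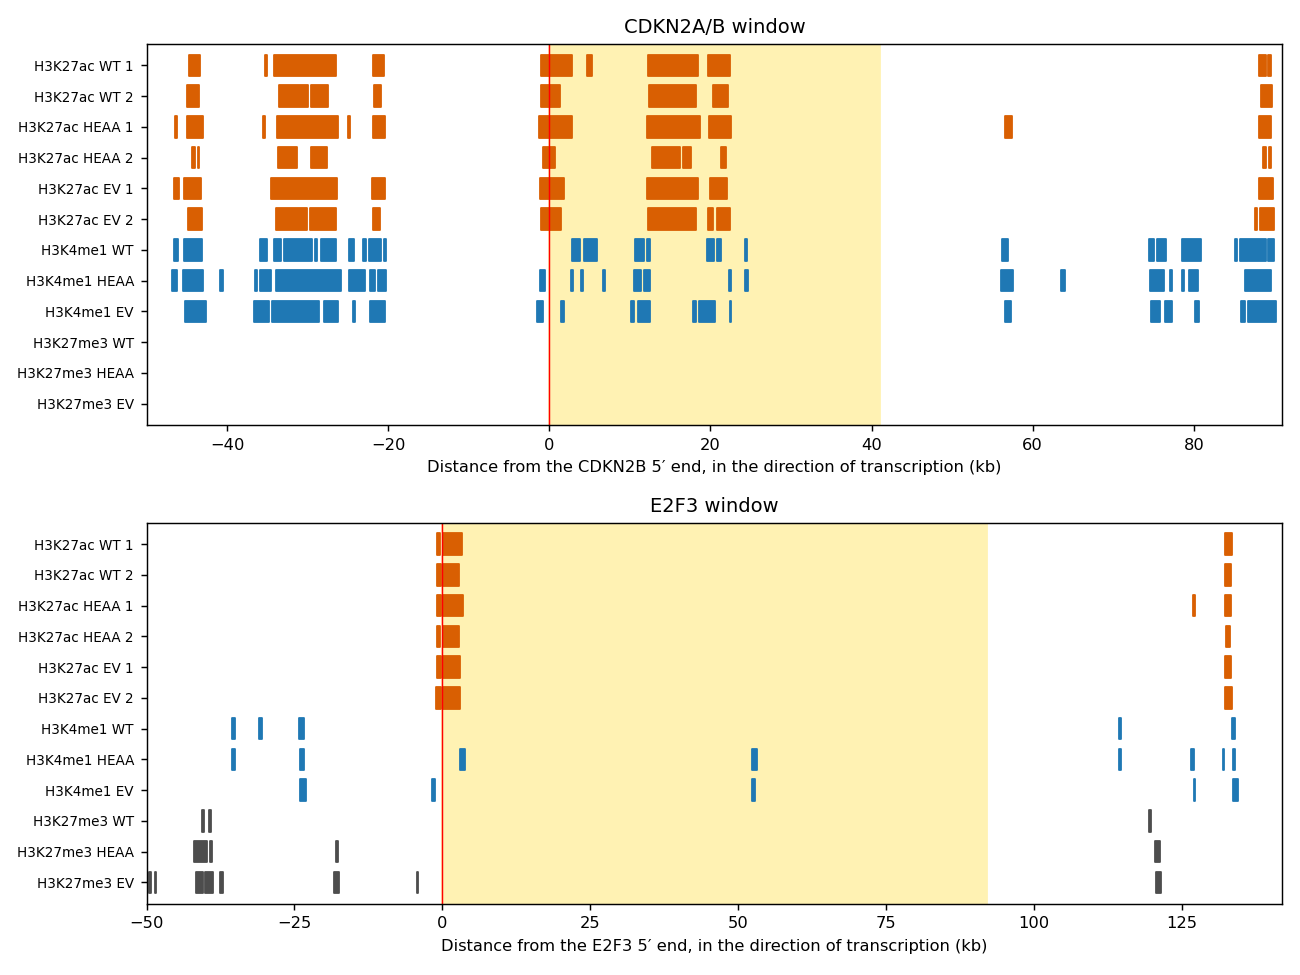
Called regions of each histone list in the CDKN2A/B and E2F3 windows against the distance from the CDKN2B or E2F3 5′ end in kb, with 1 line of bars per list, the gene bodies shaded and the 5′ ends as vertical lines. In the upper map all lists are empty from 24.6 to 56.1 kb, and in the lower one the E2F3 body is nearly empty beyond the acetylated 5′ end.

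Long stretches outside every list were found in other windows too. In RB1, 63.1 kb of the gene body (chr13:48909112-48972187) lay in no list, and 87.7% of that window did. In E2F3 the longest such stretch was 61.3 kb (chr6:20455109-20516426), of which 38.9 kb lay in the gene body, and 90.4% of the window lay in no list. The longest stretches of the other windows were 18.9 kb in MDM2, 10.2 kb in CCND1 and 9.83 kb in CDKN1A. The share of the window in no list was 76.0% in MDM2, 59.6% in CCND1, 68.0% in CDKN1A and 63.3% in CDKN2A/B. The share of the genome in no list was not computed, so these values describe the windows and do not set them apart.

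Acetylation away from the 5′ ends was in part shared by all libraries. CDKN1A had a region 10.7 to 6.31 kb upstream that was covered over 4.30 and 1.52 kb in WT, 4.38 and 1.81 kb in HEAA and 2.58 and 1.96 kb in EV. Replicate 2 of WT and HEAA lay below both EV libraries there, and replicate 1 of WT and HEAA above them. MDM2 had a region 22 to 18.8 kb upstream, covered over 2.34 and 1.34 kb in WT, 3.22 and 1.35 kb in HEAA and 2.82 and 1.16 kb in EV. RB1 had a region inside the gene, 107 to 110 kb from the 5′ end, covered over 2.07 and 1.64 kb in WT, 2.18 and 1.94 kb in HEAA and 2.40 and 2.96 kb in EV. At the far end of the CDKN2A/B window, 88.1 to 90.0 kb from the CDKN2B 5′ end, a region was covered over 1.11 and 1.30 kb in WT, 1.47 and 0.738 kb in HEAA and 1.68 and 1.73 kb in EV. At these RB1 and CDKN2A/B regions all 4 WT and HEAA libraries lay below both EV libraries, which held for 2 of the 19 regions shared by all libraries, against 8.13% of such regions over the genome. The reverse held for 0 of 19, against 2.57%. The widest RB1 region, 3.75 kb and 94.4 to 98.2 kb from the 5′ end, was called in both HEAA libraries, WT replicate 1 and EV replicate 1 only. Some of these regions may belong to other genes: the neighbouring coding genes in the RefSeq order are MYEOV and LTO1 around CCND1, SRSF3 and RAB44 around CDKN1A, and MTAP and DMRTA1 around the CDKN2A and CDKN2B pair. They are MBOAT1 and CDKAL1 around E2F3, ITM2B and LPAR6 before and within RB1, and SLC35E3 and CPM around MDM2. In that annotation LPAR6 lies inside RB1, so regions in the RB1 body may be those of LPAR6, and CPM overlaps an end of MDM2.

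**Figure D3:**
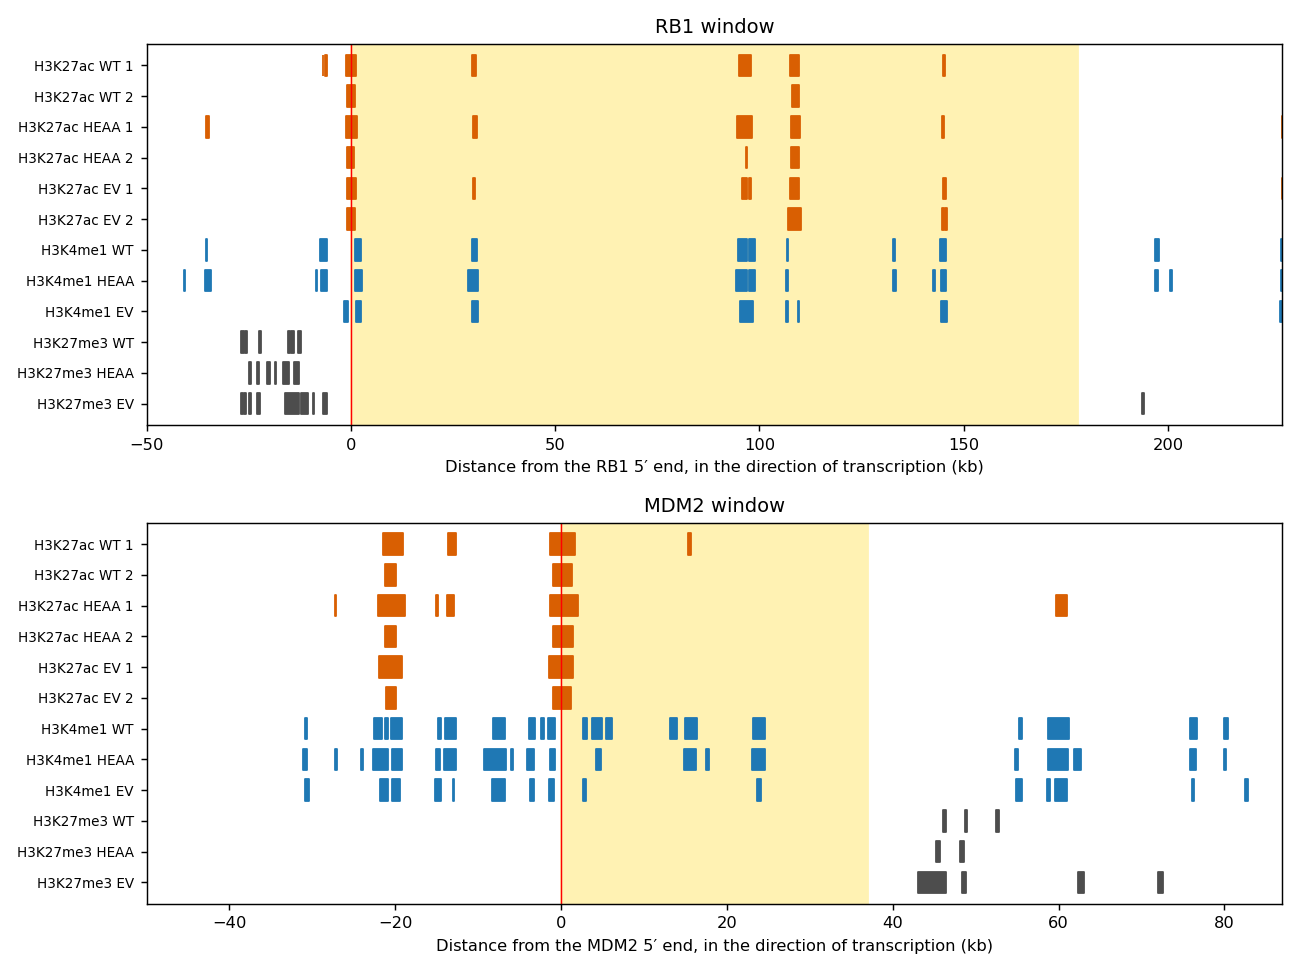
Called regions of each histone list in the RB1 and MDM2 windows against the distance from the 5′ end in kb, with 1 line of bars per list, the gene bodies shaded and the 5′ ends as vertical lines. RB1 has acetylation at its 5′ end and at points inside the gene, MDM2 at its 5′ end and 22 to 18.8 kb upstream, and H3K27me3 lies in the flanks of both.

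No acetylated region in the windows was called throughout the WT and HEAA libraries and absent from EV, or the reverse. Merging the 6 libraries gave 50 H3K27ac regions in the windows. Of these, 0 were present in all 4 libraries of WT and HEAA and absent from EV, against 0.540% of the 81809 merged regions of the genome. In the other direction, 0 were called in both EV libraries and in no WT or HEAA library, against 0.909% of the genome. A share that low leaves fewer than 1 region to be found among 50, so the count of 0 does not set the windows apart. All 6 libraries called 19 of the 50 (38.0%), against 31.8% of the genome. One of the 19 crosses the far border of the RB1 window, and only replicate 1 of HEAA and of EV called a part of it inside the border. A further 19 (38.0%) were called in 1 library, against 28.9%, and 14 of these were calls of HEAA replicate 1, the longest list, with 4 from WT replicate 1 and 1 from EV replicate 2.

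The share of a window covered by H3K27ac regions did not separate the lines, and in WT and HEAA the 2 replicates lay further apart than the means of the lines in all 6 windows. In the CCND1 window it was 9.29% and 7.71% in WT, 11.5% and 8.10% in HEAA and 8.47% and 10.2% in EV. In the CDKN1A window it was 12.0% and 8.24% in WT, 14.6% and 8.62% in HEAA and 9.59% and 9.92% in EV. In the CDKN2A/B window it was 17.9% and 13.7% in WT, 19.6% and 8.75% in HEAA and 18.3% and 15.6% in EV. The 3 lines overlap in each of these windows.
E2F3 was covered over 2.61% and 2.23% in WT, 2.78% and 2.10% in HEAA and 2.37% and 2.56% in EV. RB1 was covered over 3.46% and 1.25% in WT, 3.80% and 1.49% in HEAA and 2.81% and 2.10% in EV. MDM2 was covered over 4.82% and 2.61% in WT, 6.67% and 2.77% in HEAA and 4.17% and 2.47% in EV. MDM2 is the window where WT and HEAA exceeded EV in both replicate numbers, by 1.57 points in replicate 1 and 0.219 points in replicate 2.

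**Figure D4:**
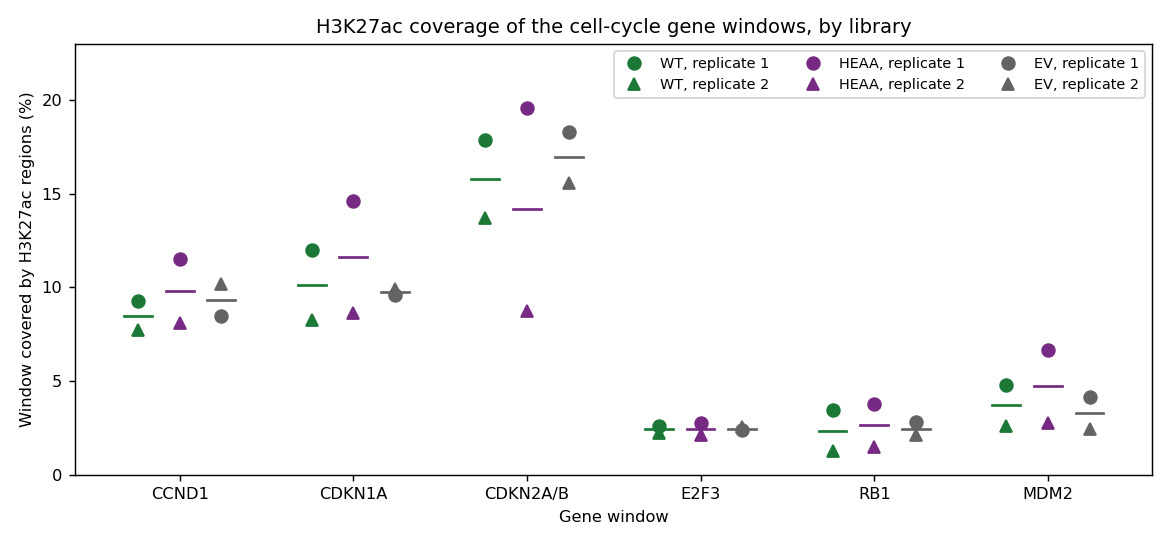
Share of each window (percent) covered by H3K27ac regions in every library, with circles for replicate 1, triangles for replicate 2 and a short line at the mean of the 2 libraries of a line. In WT and HEAA the replicate 1 library lies above replicate 2 in all 6 windows, and the values of the 3 lines overlap in each.

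Over all windows together the covered share averaged 6.11% ± 1.58 in WT, 6.43% ± 2.83 in HEAA and 6.32% ± 0.388 in EV (SD, n = 2 each). The 4 WT and HEAA libraries differed from the 2 EV libraries by −0.0472 points (exact two-sided permutation test, p = 1.00; the smallest p this design allows is 0.0667). For single windows the difference ran from −1.97 points at CDKN2A/B to 1.11 points at CDKN1A, with raw exact permutation p between 0.600 and 0.933 and an adjusted p of 0.933 for each of the 6. WT and HEAA differed by −0.316 points over all windows (exact permutation test, p = 1.00, smallest possible 0.333), and the adjusted p was 1.00 in each window. These designs cannot pass 0.05, and the tests do not show that the lines are alike. In 0 of 6 windows did all 4 WT and HEAA libraries lie above both EV libraries, against 2.28% of bins of 150 kb over the genome that held H3K27ac, and in 0 of 6 below them, against 4.42%.

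Within replicate 1, HEAA exceeded EV in 6 of 6 windows (80.4% of bins over the genome) and WT exceeded EV in 5 of 6 (63.1%). Within replicate 2, HEAA exceeded EV in 1 of 6 (10.5%) and WT in 1 of 6 (19.4%). Over all windows, HEAA covered 1.28 times and WT 1.10 times as much as EV in replicate 1, beside 1.25 and 1.09 times for the whole lists. In replicate 2 HEAA covered 0.733 and WT 0.826 times as much as EV, beside 0.674 and 0.772 times for the whole lists. Single windows did not all follow the lists: at CDKN2A/B the ratio of WT to EV was 0.981 in replicate 1, and at MDM2 it was 1.05 in replicate 2, with 1.12 for HEAA. In replicate 2 the ratio of WT to HEAA was 1.15 for the whole lists but 0.952 at CCND1, 0.957 at CDKN1A, 0.839 at RB1 and 0.940 at MDM2. List length and construct cannot be told apart within a replicate number.

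H3K4me1 lay over more of the windows in WT and HEAA than in EV, with 1 list per line and so no replicate check. It covered 10.3% of the windows in WT, 11.9% in HEAA and 8.45% in EV, which is 101, 116 and 82.1 kb. Coverage was higher in HEAA than in EV in 6 of 6 windows, against 75.6% of bins over the genome, and higher in WT than in EV in 5 of 6, against 71.0%. The ratio over all windows was 1.23 for WT over EV and 1.41 for HEAA over EV, beside 1.14 and 1.18 for the whole lists. The median fold of the regions in the windows was 2.92 in WT, 2.78 in HEAA and 2.92 in EV, beside 2.94, 2.85 and 2.91 over the whole lists.

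In the bodies of CCND1 and MDM2, picked after the values were seen, WT and HEAA had at least 2 times the coverage of EV. The share of gene bodies over the genome that pass such a limit was not computed. The CCND1 body was covered over 44.3% in WT, 61.8% in HEAA and 21.3% in EV, with 6, 7 and 3 of its 7 merged regions called in these lines. The MDM2 body was covered over 15.9% in WT, 10.7% in HEAA and 2.26% in EV, which is 5.90, 3.95 and 0.835 kb. No other body reached that limit in both WT and HEAA. The CDKN1A body was covered over 46.6% in WT, 56.7% in HEAA and 44.8% in EV, and the RB1 body over 4.91%, 6.35% and 4.77%. The CDKN2A/B bodies were covered over 14.3% in WT, 7.63% in HEAA and 11.5% in EV, and the E2F3 body over 0%, 1.70% and 0.572%. By window, MDM2 was covered over 13.2% in WT, 13.4% in HEAA and 7.18% in EV, and CCND1 over 16.9%, 19.1% and 13.0%. In lists of equal length the CCND1 window differed from EV by 0.0115 points in WT and 4.06 in HEAA, against 3.91 and 6.13 as called. The MDM2 window differed by 5.22 points in WT and 5.09 in HEAA, against 6.03 and 6.25 as called. The MDM2 ratio to EV was over 1.5 in WT, as in 21.7% of bins, and MDM2 and RB1 were over 1.5 in HEAA, as in 23.5% of bins.
CDKN1A was covered over 19.1% in WT, 23.4% in HEAA and 15.8% in EV, and RB1 over 4.26% in WT, 6.01% in HEAA and 3.56% in EV. The CDKN2A/B window differed little, at 19.7% in WT, 20.7% in HEAA and 19.1% in EV. E2F3 had the least, at 1.31% in WT, 2.14% in HEAA and 1.63% in EV, and was the one window where WT lay below EV.

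Of the 125 merged H3K4me1 regions in the windows, 54 were called in all lines (43.2%, against 47.1% of the genome). WT and HEAA shared 23 that EV lacked (18.4%, against 13.5%), and 8 were called in EV alone (6.40%, against 7.54%). CDKN1A held 6 of the 23 and 0 of the 8, and CCND1 held 5 and 2. Over all windows the higher coverage did not hold among strong regions. With a −log10 q of at least 5, WT and HEAA lay below EV, with differences of −0.785 and −0.362 points. By window they lay above EV at CCND1 (0.998 in WT, 1.73 in HEAA) and MDM2 (1.89 and 2.65). They lay below EV at CDKN1A and CDKN2A/B and level with it at E2F3 and RB1. Only 2 WT, 5 HEAA and 6 EV regions in the windows passed that limit, which is 1.89% in WT, 4.42% in HEAA and 7.50% in EV, against 12.2%, 13.3% and 17.4% of the whole lists. With the lists shortened to equal length, WT lay above EV by 0.707 points and HEAA by 2.17 points, against 1.90 and 3.48 points as called.

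At the 5′ ends, acetylated bases mostly lacked H3K4me1. Within 1 kb of the 5′ ends, 12.2% and 5.68% of H3K27ac bases also lay in an H3K4me1 region in WT, 23.7% and 14.1% in HEAA and 19.2% and 16.0% in EV. Over the whole windows the shares were 46.4% and 34.5% in WT, 54.5% and 38.0% in HEAA and 49.5% and 45.4% in EV. Over the genome they lay between 63.2% and 72.2%. That genome share takes all H3K27ac bases wherever they lie. No share for 5′ ends over the genome was computed, so the low overlap is not shown to be particular to these genes. E2F3 was the extreme case: 0 of its acetylated bases carried H3K4me1 in 5 of the 6 libraries, and 13.1% did in HEAA replicate 1. CDKN1A lay at the other end, with 59.9% and 45.6% in WT, 67.7% and 64.4% in HEAA and 67.1% and 66.3% in EV. H3K4me1 regions reached within 2 kb of the CDKN1A 5′ end in all lines, over 1.98 kb in WT, 3.38 kb in HEAA and 3.32 kb in EV. After merging they ended 2.11 kb into the gene, and the next H3K4me1 region began 4.77 kb into it. Any start of CDKN1A further into the gene was not tested.

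H3K27me3 was found in the flanks of 4 windows and inside no gene body. The share of gene bodies over the genome without the mark was not computed, so its absence there does not set these genes apart. CDKN1A and CDKN2A/B had none in any line, as did 25.6% of bins over the genome. In the CCND1 window it covered 1.81% in WT, 3.43% in HEAA and 9.94% in EV. In the MDM2 window it covered 0.777% in WT, 0.643% in HEAA and 3.72% in EV. RB1 had 1.16% in WT, 1.71% in HEAA and 3.27% in EV, and E2F3 0.611% in WT, 2.04% in HEAA and 2.95% in EV.

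WT lay below EV in 4 of the 4 windows with the mark, against 81.0% of bins over the genome, and HEAA lay below EV in 4 of 4, against 47.6%. Taking under 0.7 times the EV coverage as a limit chosen after the values were seen, 4 of 4 windows passed in WT (62.8% of bins) and 4 of 4 in HEAA (27.2%), E2F3 in HEAA just inside it at 0.690. Over all windows the ratio to EV was 0.241 in WT and 0.432 in HEAA, beside 0.704 and 1.05 for the whole lists. The whole HEAA list thus covered about as much as that of EV, while its coverage here was lower. The bins and whole lists take in all places, with or without genes. No share for windows around other genes was computed, so the lower coverage is not shown to be particular to these genes. With 1 list per line there is no replicate check, and regions of the same window lie next to each other and are not separate observations.

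Of the 39 merged H3K27me3 regions, 18 were called in EV alone (46.2%, against 21.0% of the genome). None was called in WT and HEAA without EV (0 of 39, against 7.40%), and 6 were called in all lines (15.4%, against 25.7%). CCND1 held 9 of the 18. Its upstream flank had 12 merged regions between 39.3 and 13.4 kb upstream, of which 1 was called in WT, 3 in HEAA and 12 in EV. Where the lines shared a region, EV covered the most of it or as much as HEAA. The widest, 16.5 to 10.6 kb upstream of RB1, was covered over 1.86 kb in WT, 2.73 kb in HEAA and 5.06 kb in EV. One 43.1 to 46.4 kb downstream of the MDM2 5′ end was covered over 0.439 kb in WT, 0.431 kb in HEAA and 3.31 kb in EV. One 42.0 to 38.7 kb upstream of E2F3 was covered over 0.758 kb in WT, 2.59 kb in HEAA and 2.59 kb in EV.

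All of these H3K27me3 regions were weak. Their fold lay between 2.32 and 3.02 in WT, 2.04 and 2.67 in HEAA and 2.08 and 3.32 in EV, and the highest −log10 q was 2.16 in WT, 2.48 in HEAA and 3.83 in EV. With a −log10 q of at least 5 the windows held none in any line, and such regions made up 0.148% of the whole list in WT, 0.519% in HEAA and 0.701% in EV. The median fold in the windows was 2.53 in WT, 2.37 in HEAA and 2.35 in EV, beside 2.59, 2.35 and 2.44 over the whole lists. No base of H3K27me3 overlapped an H3K27ac region of the same line in the windows, and no UTX peak of any line lay in these flanks. No share over the genome was computed for either, so they describe the windows and do not set them apart.

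**Figure D5:**
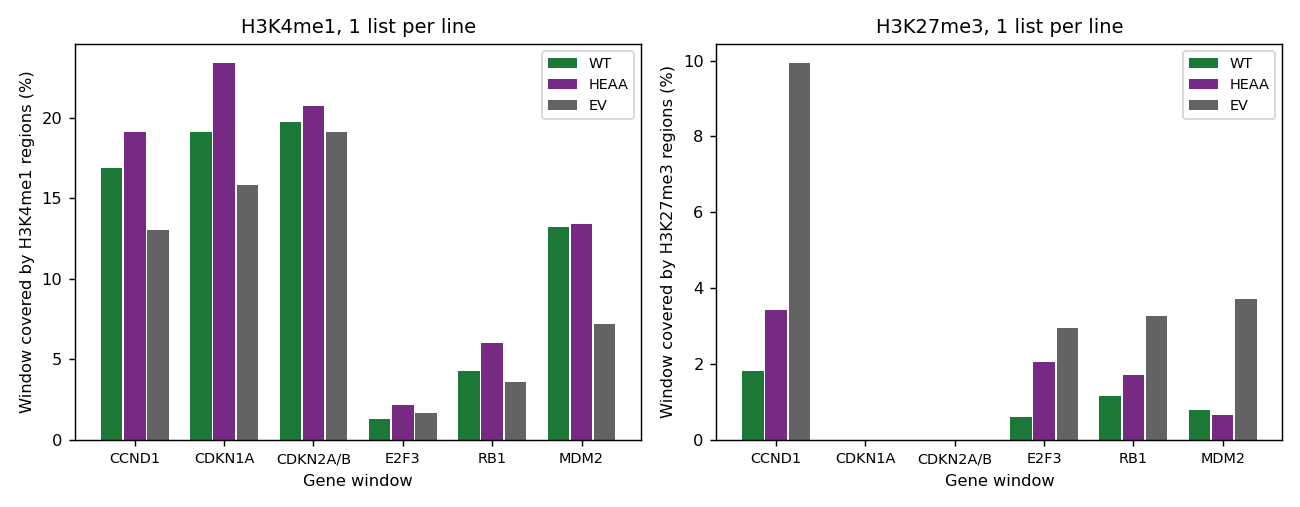
Share of each window (percent) covered by H3K4me1 regions (left) and H3K27me3 regions (right) in WT, HEAA and EV, with 1 list per line and so no error bars. H3K4me1 is higher in HEAA than in EV in all 6 windows, and H3K27me3 is lower in WT and HEAA than in EV in the 4 windows that have it.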

How the data were processed

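ChIP-seq lists of 18 of the 24 samples were used, and the 6 input samples were not analysed here. MACS2, hg19 and GRCh37 are named in the submitters' processing notes. The MACS2 version, the aligner and the read filters were not given in the sources used here. Per the labels' protocols, micrococcal nuclease and sonication fragmented the chromatin for UTX and MLL4, and sonication alone that for histone marks. UTX and MLL4 lists hold narrow peaks and histone lists broad regions, as the deposited columns show. The deposited fold enrichment over background is a ratio from the authors' peak caller. The deposited −log10 p and −log10 q values are the authors' as well, and the largest q was 0.0495 among narrow peaks and 0.0999 among broad regions. A deposited score per region was not used. Fold and q values only describe, rank or filter regions within a list. Peak names carry the word "full" in the replicate 2 H3K27ac lists, "full" and "merged" in the UTX lists and "mergedInput" in the MLL4 lists. What these words mark is not stated, nor is it stated whether a UTX list pools several libraries.

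The windows were read from the stated rule, and each 5′ end is the window border moved in by 50 kb. Regions were merged across lists when they shared at least 1 bp. Covered shares, merged regions and bins of 150 kb were computed with Python 3.11.15, NumPy 2.4.6 and pandas 2.3.3, and figures drawn with matplotlib 3.10.9. Exact two-sided permutation tests over libraries compared the H3K27ac shares, adjusted with the Benjamini-Hochberg method over the 6 windows. Nothing in the labels states that the numbered libraries are separate cultures, so each p measures only how these libraries spread, possibly for technical reasons. Code was tested on simulated data. All 7 members are named, with the region at each 5′ end, the widest merged H3K27ac region, peaks of UTX and MLL4, and the longest stretch in no list; other regions were picked after their values were seen. The members and lists were chosen with earlier results of these data known. A list of other cell-cycle genes was not analysed, since it needs an annotation of the hg19 build, which was not used here; gene names and neighbours come from RefSeq on GRCh38.p14. Alternatives covered the q limit, list length, the gene body, merging distance, list-total scaling (chosen after seeing the data), each replicate and the replicate block.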

Additional observations from a re-analysis of the deposited data

How the results depend on the processing

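The alternatives run for UTX and MLL4 can only remove peaks, so they say nothing about the counts of 0. For H3K27ac, WT and HEAA minus EV over all windows (−0.0472 points) was 0.108 for gene bodies, 36.8 (bases per Mb of list coverage) for list-total scaling, which was chosen after seeing the data, and −1.33 to 1.24 when a replicate number was left out. It kept its sign but moved to −0.810 at a −log10 q of at least 5 and to −0.217 in lists of equal length. By window at that q limit it ran from −5.33 at CDKN2A/B to 0.796 at CDKN1A. WT minus HEAA (−0.316) was 0.00741 at a −log10 q of at least 5, 0.191 for gene bodies and −1.20 to 0.565 without a replicate number. By window, WT and HEAA minus EV turned at a −log10 q of at least 5 for RB1 (−0.141); for gene bodies at CCND1 (1.09), E2F3 (0.115) and RB1 (−0.135); under list-total scaling at CCND1 (8.73) and E2F3 (5.19). Without a replicate number it ran from −2.29 to 1.92 at CCND1, −1.49 to 3.71 at CDKN1A, −4.42 to 0.477 at CDKN2A/B, −0.395 to 0.322 at E2F3 and −0.727 to 0.825 at RB1. WT minus HEAA turned at a −log10 q of at least 5 for CCND1 (0.0721) and RB1 (0.0475) and for the CCND1 body (0.404), and ran from −1.67 to 4.95 at CDKN2A/B and −0.177 to 0.130 at E2F3 without a replicate number. The cause was not tested.

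The 0 gained and 0 lost H3K27ac regions became 0 to 3 gained and 0 to 5 lost when a replicate number was left out. At a −log10 q of at least 5, 1 of 24 was lost, against 1.16% over the genome. It was the CDKN2A/B region 88.1 to 90.0 kb from the CDKN2B 5′ end. The 3 of 50 gained without replicate 2 lay upstream of MDM2, CDKN1A and CDKN2B, against 12.4% gained over the genome; the 5 of 28 lost without replicate 1 stand against 21.9%.

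H3K4me1 over all windows reversed at a −log10 q of at least 5 (WT −0.785, HEAA −0.362) and moved to 0.707 and 2.17 in lists of equal length. By window it reversed at that q limit at CDKN1A (WT −3.42, HEAA −1.40) and CDKN2A/B (WT −5.36, HEAA −5.36), in lists of equal length at CDKN2A/B (WT −2.05, HEAA −2.03), and for the CDKN2A/B bodies in HEAA (−3.82). At CCND1, WT (3.91) came to 0.0115 in lists of equal length and 0.998 at that q limit. H3K27me3 differences (WT −2.43, HEAA −1.82) became 0 at that q limit and for gene bodies, since no region was left there.

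With the replicate block the H3K27ac differences are the same, and the exact permutation p was 1.00 over all windows and 0.444 to 1.00 by window for WT and HEAA minus EV, and 1.00 and 0.500 to 1.00 for WT minus HEAA; no call changed. The replicate numbers rest on 2 numbers per line and are shared by number only. The differences of replicate 1 and 2 correlated at 0.206 (WT and EV), 0.176 (HEAA and EV) and 0.328 (WT and HEAA) over 81809 merged regions. Unknown depth and 1 list per line for H3K4me1 and H3K27me3 limit all of these values.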
